A study of Mus musculus with 10 samples.

Results

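The comparison described here is that of PKCz-null with wild-type mouse hearts under angiotensin II. It was taken by title as the 2 arrays of PKCz -/- hearts (KO AngII 3 and KO AngII 4) against the 3 arrays of wild-type hearts (WT AngII 2, WT AngII 3 and WT AngII 4), 5 of the 10 arrays of the series. All animals were male littermates of strain SV129, 32 weeks of age. Both genotypes of the comparison received angiotensin II (AngII) for 14 days from osmotic minipumps placed under the skin, at a daily dose of 432 µg for each kg of body weight. The other 5 arrays, KO PBS 2, 3 and 4 and WT PBS 3 and 5, came from littermates of the same sex, strain and age given PBS, which 1 label calls non-treated. They serve as a second set of arrays for the same genotype difference, and they also enter the fits described below. The sources used here do not say how the null allele was made. Expression was read on the log2 scale for 45037 probe sets, with 64 control probe sets left out, and a gene is represented by its brightest probe set with 1 symbol, which gave 18193 genes.

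AngII acts mainly through a receptor coupled to the G protein alpha-q, which activates phospholipase C beta and, through it, protein kinase C. PKCz, encoded by Prkcz, is an atypical protein kinase C that needs neither calcium nor diacylglycerol and is brought to its partners by scaffolds such as p62 (Sqstm1) and the PAR proteins. The study's title places it between alpha-q and the kinase ERK5 (Mapk7), which is switched on by MEK5 (Map2k5), in the growth of the heart under load.

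A difference is KO minus WT in log2 units, so that a negative value is lower in the null hearts, and its error is the standard error of the linear model fitted with limma over all 10 arrays. A call is a Benjamini-Hochberg adjusted p under 0.05 over all 45037 probe sets. No label ties an array to its own animal. The p-values therefore describe the spread between arrays, which may be technical in part, and the small number of arrays limits the precision. In tissue samples, fewer cells of a type and less RNA per cell cannot be told apart.

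Features of the arrays bear on every value below. The bacterial RNAs added before labelling read 6.90 to 7.08 (mean over 24 probe sets) on both KO AngII arrays and on KO PBS 4, and 12.86 to 13.33 on the other 7 arrays, so under AngII genotype and spike-in level cannot be told apart. The beta-actin probe sets at the 3' end exceeded those at the 5' end, a gap that grows as RNA breaks down, by 0.83 and 0.74 on the KO AngII arrays and 0.75 on KO PBS 4, and by 0.92, 1.33 and 1.01 on the WT AngII arrays. Fitting the spike-in level as a block uses the 1 difference between KO PBS 4 and the other KO PBS arrays to separate the terms, and the arrays of the high level under PBS (KO PBS 2 and 3 against WT PBS 3 and 5) give the genotype difference with the level held constant. WT AngII 2 stood apart: 350 genes read at least 1 log2 above each of the other 4 AngII arrays, against 0 to 5 such genes on any of those, so values are also given without it. The 10 cardiomyocyte markers averaged 14.02 to 14.11 on the 5 AngII arrays.

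By limma, 5 of 45037 probe sets were called, 5 lower and 0 higher in KO (0.0111% and 0%). They were Zfp931, a zinc-finger gene, 3 probe sets each annotated to several members of the same zinc-finger cluster (1429712_at to 7 genes, 1427174_at to 8 and 1426558_x_at to 7) and the unnamed 1449910_at. Without WT AngII 2 there were 6 calls, all lower (0.0133%), the added one being 1447977_x_at, annotated to 4 genes of the cluster. At unadjusted p under 0.05 the probe sets split into 1452 higher and 1478 lower, or 49.6% higher, a share of 27.8% with equal array medians.

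Zfp931 and the 18 genes named by those multi-gene probe sets encode zinc-finger proteins or predicted relatives of them, and 18 of these 19 genes matched a promoter window in RefSeq, all on chromosome 2 of GRCm38.p6. The 250 bases before the start of each of the other 17 matched that of Zfp931 at 169 to 239 aligned bases. The windows are shown for Zfp931, for Gm14308, which 3 of the probe sets name, and for Gm14440, which the probe set with the largest difference names. Capitals mark the longest run of bases found in all 18 windows, 40 bases long.
Zfp931, chr2:178078426-178078675, minus strand: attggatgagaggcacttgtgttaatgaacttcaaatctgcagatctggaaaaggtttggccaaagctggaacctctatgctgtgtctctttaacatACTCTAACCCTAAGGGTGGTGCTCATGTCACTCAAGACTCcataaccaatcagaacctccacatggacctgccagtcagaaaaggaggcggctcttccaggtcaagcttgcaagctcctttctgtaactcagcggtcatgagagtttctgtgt
Gm14308, chr2:176636320-176636569, minus strand: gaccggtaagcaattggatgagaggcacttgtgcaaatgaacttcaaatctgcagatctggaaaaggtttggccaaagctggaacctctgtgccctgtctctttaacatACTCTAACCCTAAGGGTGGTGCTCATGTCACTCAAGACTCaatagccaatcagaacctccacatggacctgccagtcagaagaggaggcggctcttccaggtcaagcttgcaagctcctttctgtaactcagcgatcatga
Gm14440, chr2:175274875-175275124, plus strand: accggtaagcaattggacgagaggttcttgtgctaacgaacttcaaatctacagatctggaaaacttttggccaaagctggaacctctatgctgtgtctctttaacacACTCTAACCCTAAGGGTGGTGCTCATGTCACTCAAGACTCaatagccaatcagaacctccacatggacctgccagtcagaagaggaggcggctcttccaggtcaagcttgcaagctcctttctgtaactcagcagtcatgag

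The run in capitals, on either strand, was held by 30 of 32851 RefSeq windows of this length (0.0913%), belonging to 27 genes. The letters CCAAT, searched on both strands and not overlapping the run in capitals in the 3 windows shown, were found in 18 of the 18 windows and in 33.8% of all windows. The members are near copies of each other, so the signal of a probe set cannot be assigned to 1 of them.

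On 1429712_at the KO AngII arrays read 5.07 and 5.01 and the WT AngII arrays 7.82, 8.38 and 8.32. The difference was -3.14 ± 0.19, an 8.79-fold lower level (limma adjusted p = 5.11e-05). The probe set 1427174_at read 4.83 and 4.63 against 7.59, 7.36 and 7.35, a difference of -2.70 ± 0.16. KO and WT lay far apart on both, and WT AngII 2 was the lowest WT array on the first and the highest on the second. On 1426558_x_at the values were 5.61 and 5.92 against 8.22, 7.99 and 8.25, a difference of -2.39 ± 0.17. Zfp931 itself read 5.98 and 5.80 against 7.87, 7.67 and 7.75. Its difference was -1.87 ± 0.20 (limma adjusted p = 0.0105). The groups were separated by more than 1 log2 on each of these 4 probe sets.

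The fifth call, 1449910_at, lay near the bottom of the scale, at 3.47 and 3.61 against 4.37, 4.23 and 4.25 (-0.75 ± 0.08). The added 1447977_x_at read 3.86 and 3.92 against 5.36, 4.79 and 4.74, and its difference was -1.07 with WT AngII 2 (limma adjusted p = 0.101) and -0.88 without it (0.0108). All 6 probe sets kept their sign among the PBS arrays of the high spike-in level, with differences from -3.41 for 1429712_at to -0.46 for 1449910_at, and -1.95 for Zfp931. Their groups did not overlap under PBS either.

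The calls were not equally firm. With the spike-in level as a block 2 of the 5 remained (0.00444% of probe sets, also without WT AngII 2), 1429712_at (-3.16) and 1427174_at (-2.36), while Zfp931 stood at -2.12 with a limma adjusted p of 0.617 and 1449910_at at -0.64. Zfp931 also lost its call without KO AngII 3 (limma adjusted p = 0.0969), without KO AngII 4 (0.325) and without WT AngII 4 (0.0570), its difference staying between -1.96 and -1.78. The call of 1449910_at was lost without the same arrays (limma adjusted p = 0.218, 0.102 and 0.0549), at differences of -0.68, -0.82 and -0.77.

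**Figure D1:**
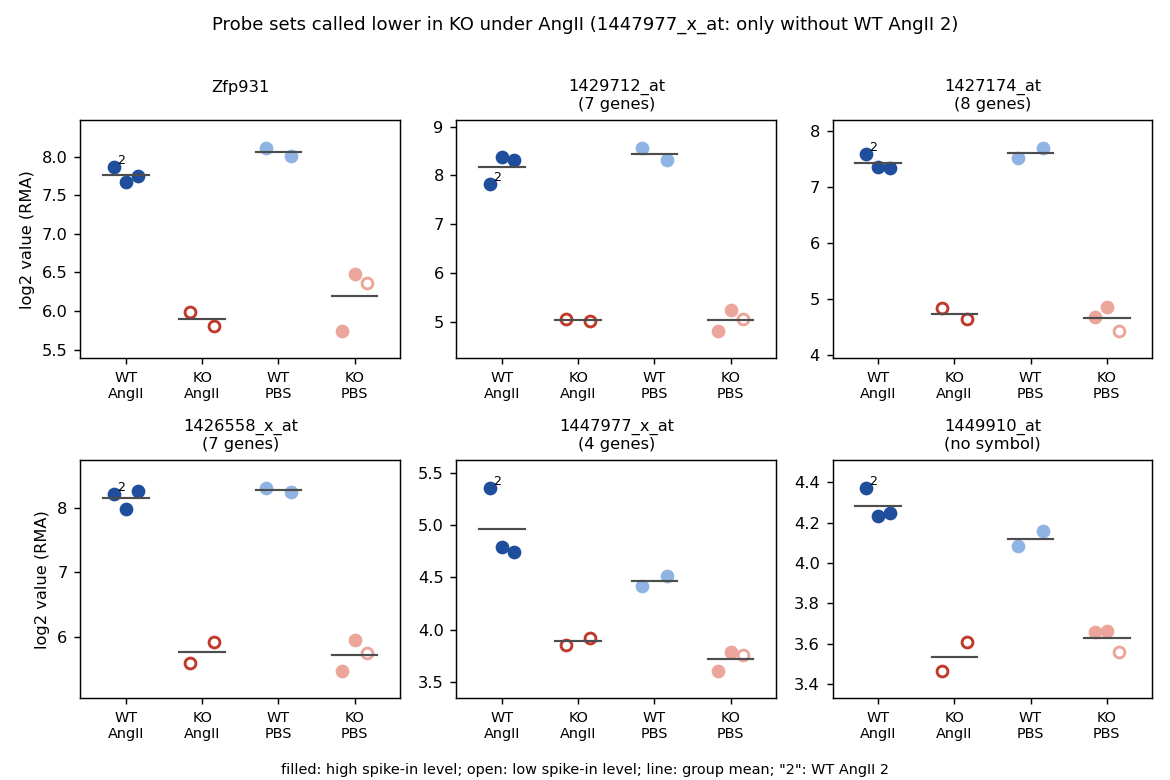
Log2 values (vertical axis) of the 6 probe sets called lower in KO under AngII with or without WT AngII 2, 1 point an array, in the 4 groups on the horizontal axis. Open points are arrays of the low spike-in level, lines are group means and 2 marks WT AngII 2; for Zfp931 the KO arrays under AngII read 5.98 and 5.80 and the lowest WT array 7.67, and the KO array of the low level under PBS lies among the other KO arrays.

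The number of calls depended on how the spread was estimated. Fitted on KO AngII 3 and 4 and WT AngII 3 and 4 alone, an alternative added after the data were seen, 446 probe sets were called, 355 higher (0.788%) and 91 lower (0.202%), while the 5 AngII arrays alone gave 4, all lower (0.00888%). Of the 446, 57 were the brightest probe set of a gene, 344 were another probe set of a gene and 45 had no symbol. On 159 of those 344 the gene's brightest probe set differed in the opposite direction. For the 355 higher ones the median difference was 0.92, and the same probe sets read a median of 1.003 higher on KO PBS 4 than on the other KO PBS arrays, which share its genotype and treatment but not its spike-in level. For the 91 lower ones the medians were -0.88 and -0.47. Over all PBS arrays, KO PBS 4 included, 368 of the 446 had the sign they had under AngII. Among the PBS arrays of the high level 160 of the 446 (35.9%) had the sign they had under AngII, against 55.9% of all probe sets.

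The genes considered next were those whose KO and WT arrays did not overlap under AngII. Their unadjusted p by limma was also under 0.01 both with and without WT AngII 2. This rule, which does not use the spike-in level, was met by 81 genes (0.445% of 18193), 24 higher and 57 lower in KO. For scale, 13.5% of all genes lay wholly higher and 14.5% wholly lower in KO over the 5 arrays, and 21.2% and 19.6% without WT AngII 2. Of the 81, the PBS arrays gave the same sign for 74 (91.4%, against 72.1% of all genes) and the PBS arrays of the high level alone for 71 (87.7%, against 63.7%). The PBS levels did not enter the choice, but the PBS arrays shared in the spread behind each p, so these shares are descriptions and not a separate test. Genes were ranked on the smaller of their differences with and without WT AngII 2, the first 15 each way are named here, and apart from Zfp931 none of them was called.

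Of the lower genes, Zfp931, Thrap3, Gde1, Sirt1, Ppm1h and Wif1 stood at -0.77 or below with and without WT AngII 2, with the block and in the high-level PBS arrays. Thrap3, a coactivator that also takes part in splicing, read 7.36 and 7.63 in KO against 8.90, 8.80 and 8.87 (-1.36 ± 0.18, limma adjusted p = 0.0528), and the difference was -1.34 without WT AngII 2, -1.80 with the block and -1.16 in the high-level PBS arrays. Its other 2 probe sets, both dimmer, differed by -0.34 each. Gde1, a membrane glycerophosphodiester phosphodiesterase, read 8.23 and 8.51 against 9.74, 9.45 and 9.52 (-1.20 ± 0.16, limma adjusted p = 0.0639), with -1.12, -1.17 and -1.07 in the same 3 settings. The WT arrays of both genes were tight and about 1 log2 above the higher KO array. Sirt1, an NAD-dependent deacetylase, read 6.36 and 6.37 against 7.53, 7.04 and 7.65, and its difference of -1.04 ± 0.22 was -1.13 with the block and -1.17 under high-level PBS. Ppm1h, a protein phosphatase, read 6.25 and 6.196 against 7.33, 7.10 and 7.01 (-0.92 ± 0.17), with -0.77 and -1.16. The second probe set of Ppm1h, nearly as bright, differed by -0.52 with all arrays but by -0.01 with the block. KO PBS 4 differed from the other KO PBS arrays by 0.44 for Thrap3, -0.03 for Gde1, 0.09 for Sirt1 and -0.15 for Ppm1h.

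Wif1, a secreted Wnt inhibitor, differed by -0.93, by -1.36 with the block and by -0.90 under high-level PBS. Its probe set was dim, at 4.745 and 4.502 in KO against 5.283, 5.380 and 6.009 in WT under AngII. Under PBS its groups overlapped, KO PBS 4 reading 5.034 and WT PBS 3 4.987. A further 5 of the lower genes had differences between -1.05 and -0.50 with the block and between -0.80 and -0.30 in the high-level PBS arrays. These were Insig1, which holds the sterol sensor SCAP in the endoplasmic reticulum (-1.01, and -0.89 with the block), Bcl6, a transcriptional repressor (-1.19 and -1.05), Ntn4, a netrin of basement membranes (-1.04 and -0.71), Klhl2, a substrate adaptor of a ubiquitin ligase (-0.83 and -0.56), and the scaffold gene Frmd4b (-0.97 and -0.50). Bcl6 read 6.98 and 7.05 in KO against 8.64, 7.91 and 8.06, WT AngII 2 being the highest. The less bright probe set of Bcl6 differed by -0.18 and that of Ntn4 by -0.08, and the 5 probe sets of Frmd4b by -0.97 to 0.08. Zfp367, a zinc-finger gene, differed by -0.86, with -0.49 and -0.40, and its second probe set by 0.25.

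For 3 lower genes the difference was near 0 with the block. Pfn1, the actin-binding protein profilin, read 10.56 and 10.47 in KO against 12.20, 11.37 and 11.76 in WT (-1.26 ± 0.34). KO PBS 4 read 10.25 while KO PBS 2 and 3 read 11.35 and 11.69 and WT PBS 3 and 5 read 11.62 and 11.40, so that the 3 low-level arrays were the 3 lowest of the 10. The difference was 0.01 with the block and 0.01 in the high-level PBS arrays. Cavin1, a coat protein of caveolae, showed the same order, at 10.21, 10.01 and 9.98 on the low-level arrays and 10.92 to 11.46 on the others, and its -0.99 became 0.05 with the block. Paip1, a partner of the poly(A)-binding protein, went from -0.85 to -0.12, KO PBS 4 differing from the other KO PBS arrays by -0.73, but it had -0.42 in the high-level PBS arrays. On the other probe sets of Cavin1 the differences were 0.00 and 0.03.

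Of the higher genes, Cenpf, a kinetochore protein of dividing cells, read 7.49 and 7.57 in KO against 6.06, 6.09 and 6.60 (1.28 ± 0.23, limma adjusted p = 0.434). Under PBS it was called higher in KO (the 1 such probe set, 0.00222%), at 8.34, 8.86 and 9.10 against 6.37 and 6.62 (2.27), and the difference between the genotype effects had an unadjusted p of 0.0108 (737 probe sets, 1.64%, were under 0.05 by limma and 0 called). All 5 KO arrays thus lay above all 5 WT arrays, but the other 2 probe sets of Cenpf, which are dimmer, differed by 0.04 and 0.17. The uncharacterised 2900052N01Rik read 6.29 and 6.15 against 4.80, 5.54 and 4.77 (1.18 ± 0.25), with 1.08 under high-level PBS and 0.57 with the block. Its dimmer probe sets differed by 0.13 and 0.23. Hadh, a mitochondrial dehydrogenase of fatty acid oxidation, read 13.20 and 13.75 against 12.29, 12.64 and 12.74 (0.92 ± 0.17). Its 3 probe sets differed by 0.71 to 1.22, and the brightest one by 0.56 with the block and 0.71 under high-level PBS.

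G0s2, an inhibitor of the lipase that starts triglyceride breakdown, differed in a way that the PBS arrays did not share. It read 9.78 and 10.03 in KO against 8.69, 8.90 and 8.82 (1.10 ± 0.19, limma adjusted p = 0.376), with 1.04 without WT AngII 2 and 1.36 with the block. Under PBS the KO arrays read 9.97, 9.33 and 9.39 and the WT arrays 9.47 and 9.35, so the groups overlapped and the difference was 0.15. The interaction had an unadjusted p of 0.00484 and was not called. Pirt, which regulates ion channels of the TRP family, had 1.02 ± 0.28 under AngII and -0.09 under PBS. Ppargc1b, a coactivator of mitochondrial and fatty acid genes, read 10.80 and 10.51 against 10.08, 10.21 and 10.13 (0.52 ± 0.14), with 0.50 under the block and 0.06 under PBS.

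The same pattern of a difference near 0 under PBS held for 2810004N23Rik (0.54 under AngII, -0.01 under PBS), the small GTPase Rab36 (0.53, 0.01) and Asb11, a ubiquitin ligase subunit (0.56, 0.15), each with an interaction p under 0.05 and none called. With the block Rab36 stood at 0.20, KO PBS 4 reading 0.33 higher than the other KO PBS arrays, and Asb11 at 0.30. On its dimmer probe sets Rab36 differed by -0.03 and 0.07 under AngII. The interaction contains the AngII difference on which these genes were chosen, so its p-values are descriptions here. Retsat, retinol saturase (0.51), the keratin Krt33b (0.51) and Coq7, of ubiquinone synthesis (0.62), kept at least 0.28 with the block. For Gpcpd1, a glycerophosphocholine phosphodiesterase, 0.76 became 0.09, and for the retroviral restriction gene Fv1 0.65 became 0.14. These 2 genes read 0.68 and 0.50 higher on KO PBS 4 than on the other KO PBS arrays.

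**Figure D2:**
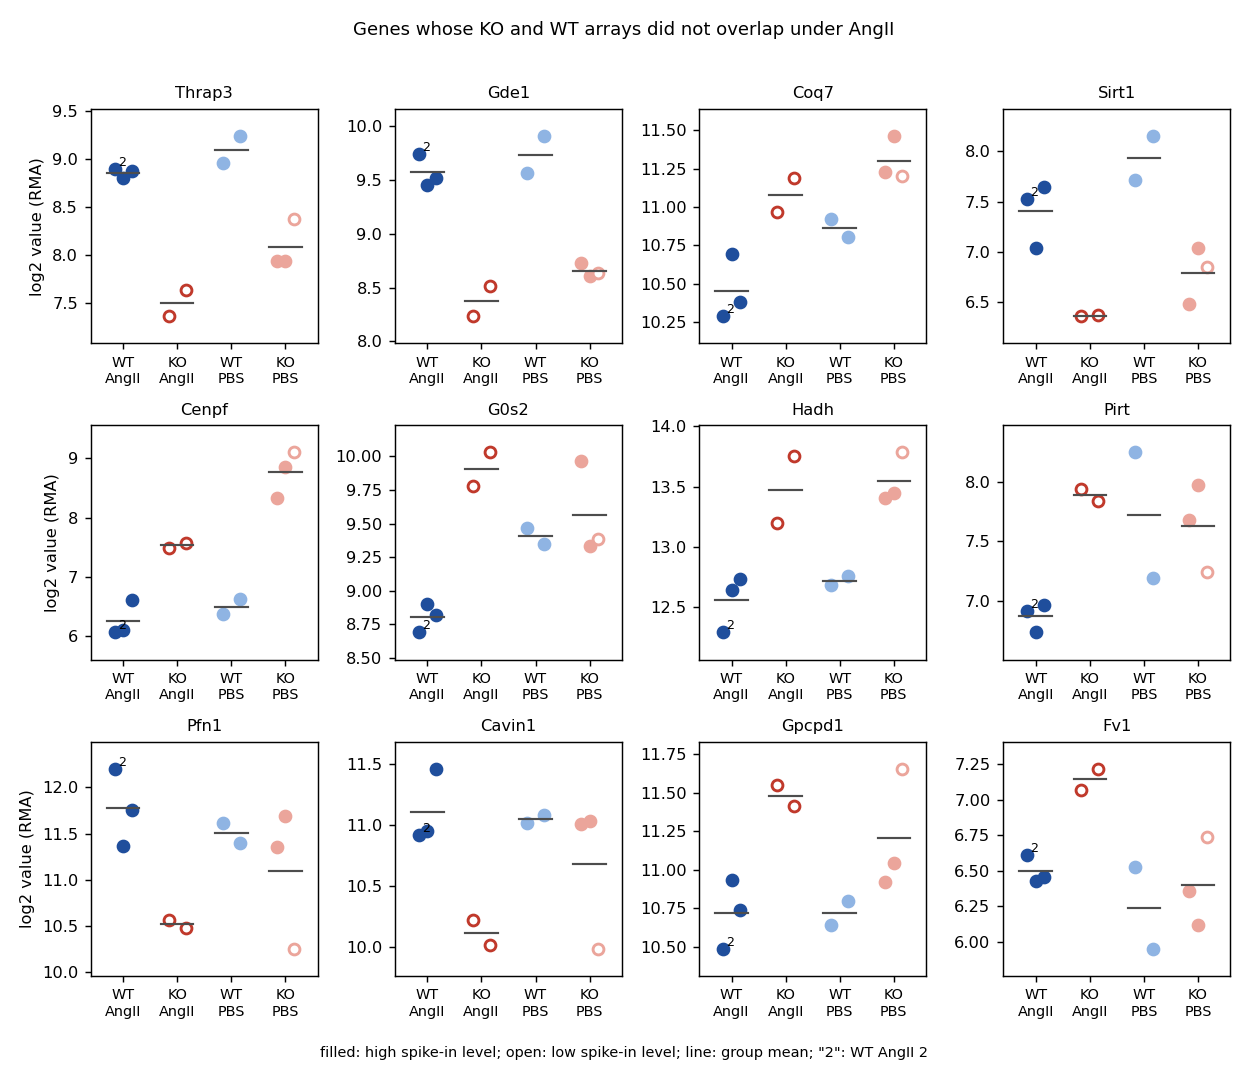
Log2 values (vertical axis) of 12 of the named genes, 1 point an array, in the 4 groups on the horizontal axis. Open points are the 3 arrays of the low spike-in level, lines are group means and 2 marks WT AngII 2; the Thrap3 and Gde1 KO arrays lie below the WT arrays under both treatments, G0s2 and Pirt separate only under AngII, and for Pfn1 and Cavin1 the 3 open points are the 3 lowest.

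**Figure D3:**
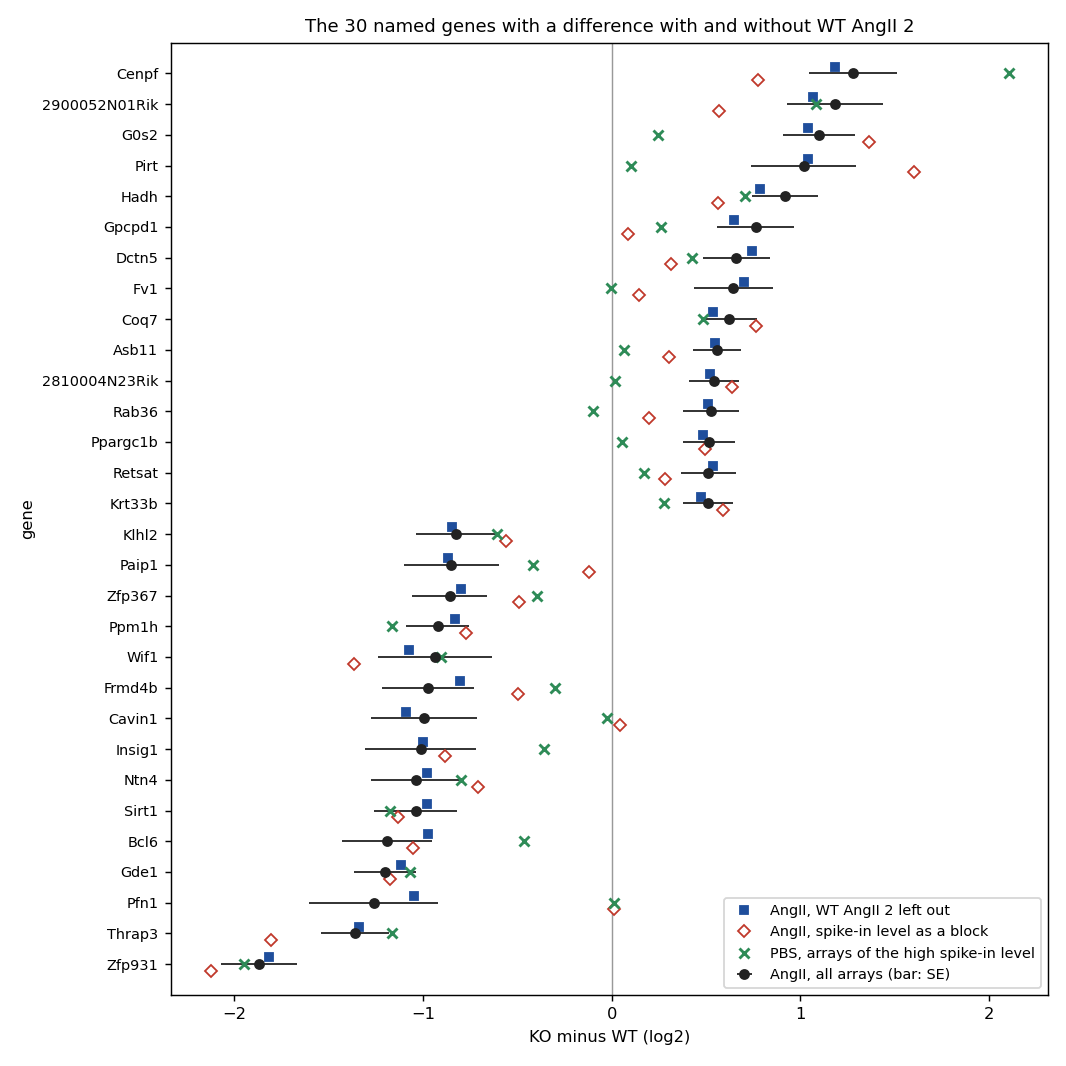
KO minus WT difference (horizontal axis, log2) of the 15 highest and 15 lowest named genes (vertical axis) under AngII with all arrays (circles, bars SE), without WT AngII 2 (squares) and with the spike-in level as a block (diamonds), and under PBS within the high spike-in level (crosses). The block takes Pfn1 from -1.26 to 0.01 and Cavin1 from -0.99 to 0.05.

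In the RefSeq gene order of GRCm38.p6, used here only for which genes neighbour each other, 4 of the 81 genes lay in 1 stretch of 52 measured genes (7.69%). It runs from Coq7 over Gde1, 3 measured genes on, to Gga2, 41 further on, and Dctn5, 4 after that. Coq7 and Dctn5, a dynactin subunit, were higher in KO by 0.62 and 0.66 (0.76 and 0.31 with the block), and Gde1 and Gga2, a sorting adaptor of the Golgi, lower (-1.20 and -0.57). Their signs were the same in the high-level PBS arrays, at 0.48, 0.42, -1.07 and -0.58. Within the stretch 23 of the 52 genes did not overlap between KO and WT (44.2%, against 28.0% of placed genes) and 12 had an unadjusted p under 0.05 (23.1%, against 6.62%). The stretch was picked after the values were seen.

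On the chromosome of Prkcz lay 7 of the 81 genes (8.64%, against 6.03% of placed genes), among them Prkcz itself, Fv1 with 96 measured genes between and Thrap3 with 388 between. Within up to 100 genes on each side of Prkcz 46 of 140 measured genes did not overlap (32.9%, against 28.0% of placed genes). Of these 140, 12 had an unadjusted p under 0.05 by limma (8.57%, against 6.62%). Over the whole chromosome the shares were 29.2% and 8.04%.

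The targeted gene was lower in KO but not called. Prkcz read 5.87 and 5.87 in KO against 6.23, 6.45 and 6.39 in WT, a difference of -0.49 ± 0.13 (limma adjusted p = 0.734), -0.55 without WT AngII 2 and -0.60 with the block. The groups did not overlap, and the exact two-sided permutation p over the 5 arrays was 0.1, the smallest that 10 arrangements can give. Its other 2 probe sets differed by -0.18 and 0.11. No source used here places the 3 probe sets relative to the deletion, and a probe set outside it would check nothing.

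The genes of the pathway under study showed no call. Among 15 atypical PKC genes and partners 5 differences were above 0 and the median was -0.14, against a median of 0.00 over all 18193 genes, and 2 of 15 had an unadjusted p under 0.05 lower in KO (background 4.25% lower and 2.39% higher over all genes, 2.71% and 2.03% without WT AngII 2, and 0.577% and 0.896% with the block). With the block 8 of the 15 were above 0 (median 0.005). Prkci, the other atypical kinase, read 7.25 and 7.52 against 8.41, 7.71 and 7.81 (-0.59 ± 0.24), but -0.03 with the block. Its second, dimmer probe set went the other way (0.29). Sqstm1 had 0.25 ± 0.18, and 0.46 without WT AngII 2. Of the 9 genes of the PKC and PKD kinases that diacylglycerol activates none was above 0 (median -0.20), and 1 was above 0 without WT AngII 2 (median -0.05). With the block 4 of the 9 were above 0 (median -0.04). Among the 9, Prkd1 had the largest difference, -0.78, which was -0.04 with the block.

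Among the 18 genes of the angiotensin receptor, alpha-q and the ERK5 cascade 5 were above 0 (median -0.17, and -0.09 without WT AngII 2) and 4 had an unadjusted p under 0.05, all lower, against 1 lower and 1 higher without WT AngII 2. The 4 were the phospholipase Plcb4 (-0.33), the alpha-q relative Gna11 (-0.55), the ERK5 cascade kinase Map3k2 (-0.57) and Rgs5, a brake on alpha-q signalling (-0.26). Gna11 and Map3k2 stood at 0.23 and 0.05 with the block, and KO PBS 4 differed from the other KO PBS arrays by -0.775 and -0.62. Plcb4 kept -0.28. Mapk7 read 7.20 and 7.22 in KO against 7.31, 7.14 and 7.22, a difference of -0.01 ± 0.14 with overlapping groups. Map2k5 had -0.29 ± 0.20, Gnaq -0.36 ± 0.17 with its 7 probe sets between -0.54 and 0.42, and the receptor Agtr1a 0.26 ± 0.17.

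Of the 21 measured markers of cardiac growth 1 lay wholly higher and 2 wholly lower in KO (all genes 13.5% and 14.5%). Over the list 8 differences were above 0 (median -0.03), and 13 were without WT AngII 2 (0.03). Nppa, atrial natriuretic peptide, read 13.95 and 14.05 against 14.48, 13.90 and 14.05 (-0.14 ± 0.15), the beta myosin heavy chain Myh7 had -0.41 ± 0.31 and skeletal actin Acta1 0.03 ± 0.13, all with overlapping groups. Nppb, brain natriuretic peptide, read 13.02 and 12.61 against 13.12, 12.77 and 13.14 (-0.19 ± 0.36). Under PBS it read 13.09, 12.07 and 11.34 in KO against 13.84 and 13.49, lowest on KO PBS 4, so the block gave 1.04 under AngII, and the interaction p was 0.0267. Myl4, an atrial light chain, had the smallest p of the list (-0.70 ± 0.21, and -0.47 with the block), with groups that did not overlap.

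The list medians of early response genes and of their inhibitors were below 0 under both treatments, and members followed the spike-in level to different degrees. Of 25 immediate early genes 6 were above 0 (median -0.25, -0.11 without WT AngII 2, 0.31 with the block and -0.80 under PBS), and 4 had an unadjusted p under 0.05, all lower. Klf6 read 8.47 and 8.17 against 9.46, 8.92 and 9.06 (-0.83 ± 0.23), Egr1 7.79 and 8.71 against 9.80, 9.52 and 9.53 (-1.36 ± 0.43), and the groups of neither overlapped. With the block Klf6 had -0.24 and Egr1 -0.20, but in the high-level PBS arrays they had -0.91 and -1.56. Of 20 feedback inhibitors of MAP kinases 7 were above 0 (median -0.19, and -0.04 without WT AngII 2), and 3 had an unadjusted p under 0.05, all lower, against 1 without WT AngII 2. Dusp6, a phosphatase of ERK, read 7.69 and 7.56 against 9.38, 8.74 and 8.67 (-1.30 ± 0.39). KO PBS 4 differed from the other KO PBS arrays by -1.52, and Dusp6 had 0.21 with the block and -0.11 under high-level PBS. Ccn1 and Ccn2, secreted matricellular proteins of the same early response, had -1.16 ± 0.46 and -1.30 ± 0.41, with -0.94 and -0.76 under the block and -1.63 each under high-level PBS.

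The direction of the matrix genes was set by WT AngII 2. Of 26 fibrillar matrix and crosslinking genes 0 were above 0 with all arrays (median -0.37), and 23 were above 0 without WT AngII 2 (median 0.29). Col1a1, the alpha-1 chain of type I collagen, read 9.85 and 9.99 in KO, 12.80 on WT AngII 2 and 8.87 and 9.18 on WT AngII 3 and 4. Its difference was -0.36 with WT AngII 2 and 0.90 ± 0.21 without it. Col3a1 read 11.58 and 11.82, then 13.60, then 10.80 and 10.84 (-0.05, and 0.88 without WT AngII 2), and the crosslinking enzyme Lox 7.75 and 7.60, then 10.78, then 6.88 and 6.90 (-0.51, and 0.79). The KO arrays lay between WT AngII 2 and the other WT arrays for all 3, which were chosen after their values were seen. Bmp1, Eln and Emilin1, the members with the smallest p, had -0.42, -0.72 and -0.59, and -0.05, 0.06 and 0.00 without WT AngII 2.

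Without WT AngII 2, 13 of the 26 fibrillar genes lay wholly higher in KO (50.0%, against 21.2% of all genes) and 9 had an unadjusted p under 0.05, none being called in the fit of all arrays but Col1a1, Col1a2, Col3a1 and Lox being called in the fit of the 4 AngII arrays alone. With WT AngII 2 left out and the block, the list median was 0.61. The 27 matricellular proteins and proteoglycans went from a median of -0.39 to 0.31, and Mmp3, a matrix protease, was above 0 both ways (0.50 and 0.37). The 14 basement membrane genes had a median of -0.33, and -0.10 without WT AngII 2, and the 20 TGF-beta pathway genes -0.26 and -0.04. Under high-level PBS the fibrillar list had a median of -0.04.

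**Figure D4:**
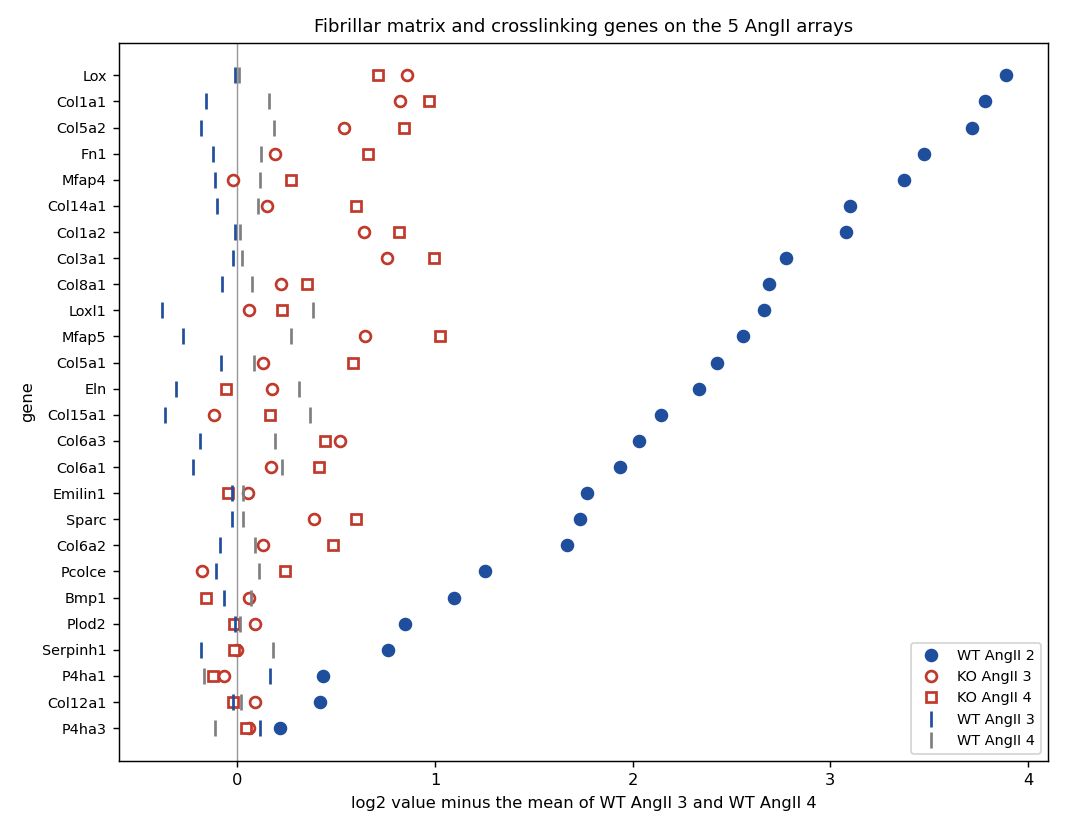
Log2 value minus the mean of WT AngII 3 and WT AngII 4 (horizontal axis) of the 26 fibrillar matrix and crosslinking genes (vertical axis), 1 symbol an AngII array. WT AngII 2 is the farthest right for all 26 genes, and for Col1a1, Col3a1 and Lox both KO arrays lie to the right of WT AngII 3 and 4.

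The 5 largest differences lost without WT AngII 2 were C1qtnf3, Sfrp2, Serpinb1a, Col11a1 and Sprr1a. Sfrp2, a secreted Wnt modulator made by fibroblasts, read 10.65 on WT AngII 2 and 5.56 to 6.32 on the other 4 arrays, and C1qtnf3 8.403 against 3.61 to 3.80. Their differences of -1.39 and -1.47 became 0.27 and 0.09. The fibroblast markers moved with WT AngII 2, averaging 11.26 there against 9.93 and 10.19 in KO and 9.64 and 9.89 on WT AngII 3 and 4, and so did the 14 macrophage markers, at 9.20 against 7.99 to 8.16 on the other 4 arrays. The part of these cells in the matrix differences was not tested.

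Genes of fat use and respiration lay slightly higher in KO with all arrays. Of 23 PPAR targets and lipid droplet genes 21 were above 0 (all genes 50.9%), with a median of 0.18, 19 and 0.13 without WT AngII 2, 0.35 with the block and 0.09 under high-level PBS. In order of unadjusted p, G0s2 and Ppargc1b came first in the list. They were followed by Pdk4, a kinase that shuts off pyruvate oxidation (0.86 ± 0.35, and 0.42 without WT AngII 2), and Esrra, an orphan receptor of mitochondrial genes (0.35 ± 0.15 and 0.24). Pdk4 read 11.12 and 11.72 in KO against 9.67, 10.78 and 11.22, so the groups overlapped. Of 26 genes of fatty acid uptake and oxidation 21 were above 0 (median 0.10, and 0.18 with the block), and 8 lay wholly higher and 0 wholly lower in KO (all genes 13.5% and 14.5%). Without WT AngII 2, 16 were above and 10 below 0 (median 0.076), and 9 lay wholly higher and 4 wholly lower (all genes 21.2% and 19.6%). The members with an unadjusted p under 0.05, all higher, went from 5 to 2. After Hadh, in order of unadjusted p, came Acadvl (0.33), Fabp4 (0.27) and Etfb (0.32), for each of which WT AngII 2 was the lowest array. The adipocyte markers, which share Fabp4, averaged 6.52 and 6.77 in KO and 6.26, 6.56 and 6.80 in WT, and their part was not tested.

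The respiratory chain lists shifted less than their counts convey. For complex I 31 of 33 subunits were above 0, but the median was 0.11, 0.04 without WT AngII 2 and 0.02 under high-level PBS, and 2 of 33 had an unadjusted p under 0.05, Ndufb3 (0.28) and Ndufb8 (0.24). For complexes II to V 35 of 38 were above 0 (median 0.11, and 0.05 without WT AngII 2), 15 lay wholly higher (all genes 13.5%) and 9 had an unadjusted p under 0.05 higher in KO (all genes 2.39%), which became 4 without WT AngII 2 and 0 with the block. With the block and without WT AngII 2, 16 of 33 complex I genes (median -0.003) and 19 of 38 of complexes II to V (0.005) were above 0. Of 23 tricarboxylic acid cycle and pyruvate genes 18 were above 0 with all arrays (median 0.07). In that list 12 were above 0 without WT AngII 2, 10 with the block and 4 with both changes (median -0.08). Atp5k, of the ATP synthase, read 13.68 and 13.67 in KO against 13.42, 13.49 and 13.41 (0.24 ± 0.07), above all WT arrays. Ndufa4 went the other way (-0.25). In contrast, 18 of 24 genes of glucose uptake and glycolysis were below 0 (median -0.11, and -0.13 without WT AngII 2). Of the 24, 10 lay wholly lower in KO (all genes 14.5%), yet the median was 0.06 with the block. Gyg, glycogenin, had -0.39, and -0.29 with the block, and Pfkfb2, which makes an activator of phosphofructokinase, had -0.55 and -0.56.

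**Figure D5:**
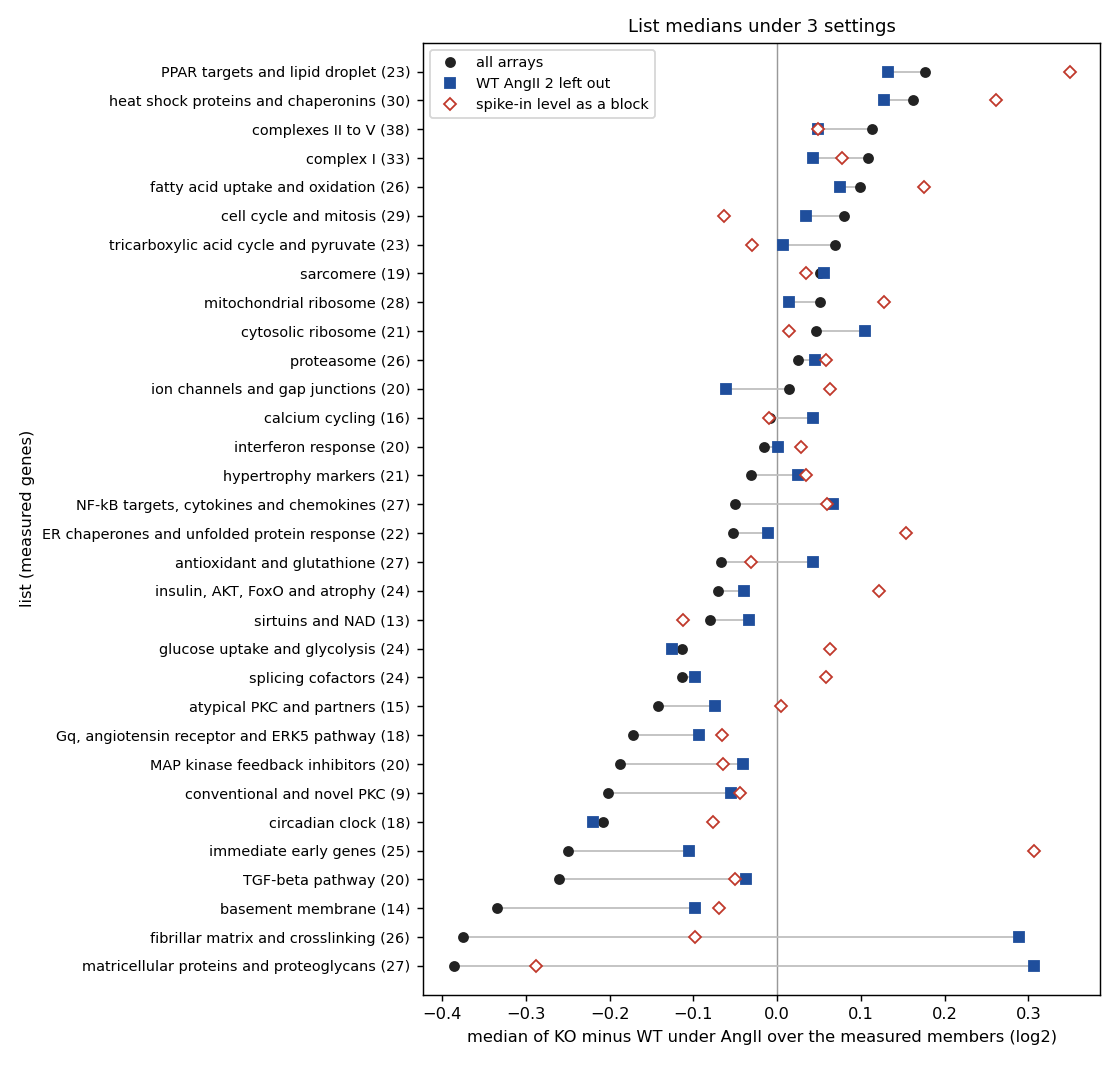
Median KO minus WT difference under AngII (horizontal axis, log2) over the measured members of 32 gene lists (vertical axis, number of measured genes in brackets), with all arrays (circles), without WT AngII 2 (squares) and with the spike-in level as a block (diamonds). The fibrillar matrix list goes from -0.37 to 0.29 without WT AngII 2, the immediate early list from -0.25 to 0.31 with the block, and the PPAR list stays at 0.13 or above.

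Of the heat shock and chaperonin genes 23 of 30 were above 0 (median 0.16, 0.13 without WT AngII 2, 0.26 with the block, 0.00 under high-level PBS), with the mitochondrial chaperonin Hspe1 at 0.46 ± 0.15. Of 18 clock genes 13 were below 0, with a median of -0.21, and -0.22 without WT AngII 2. With the block 10 of the 18 were below 0 (median -0.08), and under high-level PBS 9 were (median -0.0005). Per1, a clock repressor, had -0.82 and Ciart -0.42, but for Per1 KO PBS 4 differed from the other KO PBS arrays by -0.97, and it had 0.15 with the block. Of 24 splicing cofactors 16 were below 0 (median -0.11), and 10 lay wholly lower in KO (all genes 14.5%). Thrap3, Srrm1 (-0.43) and Rbm25 (-0.39) had the smallest unadjusted p. With the block, however, 14 of 24 were above 0 (median 0.059). In calcium cycling 8 of 16 were above 0 (median -0.01), and Camk2d, a calmodulin-dependent kinase of heart muscle, read 8.32 and 8.61 against 9.05, 8.97 and 9.32 (-0.65 ± 0.16), with -0.63 under the block and -0.40 under high-level PBS. Of the ion channels Kcnd2, a transient outward potassium channel, had -0.66 ± 0.20, with -0.91 and -0.25.

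Of the sarcomere genes 15 of 19 were above 0 (median 0.05, and -0.01 with equal array medians). Myoz2 (0.27) and, in the other direction, Mybpc3 (-0.26) had the smallest unadjusted p. The largest difference of the list was 0.35. Of 10 smooth muscle and pericyte markers 1 was above 0 (median -0.19), and 5 were without WT AngII 2 (-0.017). Acta2, smooth muscle actin, read 12.14 and 11.91 against 12.30, 12.49 and 12.81 (-0.51 ± 0.15). Its difference was -0.62 without WT AngII 2, -0.29 with the block and -0.70 under high-level PBS. The mean level of those markers was 9.36 and 9.31 in KO, 10.05 on WT AngII 2 and 9.37 and 9.36 on WT AngII 3 and 4. WT AngII 2 had the highest mean of 7 of the 16 cell type lists. The remaining pathway lists, among them the interferon response, proteasome, ribosome, antioxidant, sirtuin and cell cycle lists, had medians between -0.08 and 0.08. Medians of the 16 cell type lists ran from -0.40 (macrophage) to 0.16 (adipocyte). By limma 0 members of any list were called.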

How the data were processed

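Per the labels' protocols, biotinylated cRNA from 6 µg of total RNA was put on 1-colour Affymetrix arrays. Each deposited value is on the log2 scale and was made by the authors with RMA, per the submitters' processing notes, in a version the sources used here do not name. RMA equalises array distributions and compresses differences of dim probe sets.

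GEO's platform annotation gave 1 symbol for 34945 of the 45037 probe sets, several for 932 and none for 9160. Symbols were updated with RefSeq GRCm38.p6. limma 3.58.1 in R 4.3.3 was fitted with a mean for each of 4 groups, using all 10 arrays (trended eBayes, 6 residual degrees of freedom, 11.7 after moderation). On simulated arrays of 45037 probe sets it recovered 68% of 2-fold and 100% of 4-fold KO against WT differences under AngII, with 11 false calls. The simulated arrays had independent noise, no split in spike-in level and no array set apart like WT AngII 2. These rates therefore need not hold for the real arrays.

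Named were fixed pathway genes, all calls, the first 15 genes each way under the rule and ranking given in the text, the members with the smallest p of each described list, the 5 genes that lose most without WT AngII 2 and the calls under PBS. Of 923 list genes 855 were matched. The members and lists were chosen with earlier results of these data known. Alternatives were leaving out each array, the spike-in and replicate blocks, other normalizations, filters, moderation, array weights and gene means. Added after seeing the data were the fit of the 4 AngII arrays and the high-level PBS difference.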

Additional observations from a re-analysis of the deposited data

How the results depend on the processing

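The 5 calls became 2 with the spike-in block, with or without WT AngII 2, and 3 when probe sets below the median level were dropped, all lower. Gene means gave 1, also lower. Array weights gave 2911 calls (1329 higher, 1582 lower) and the 4 AngII arrays without WT AngII 2 gave 446 (355 and 91). Quantile normalization added 1 higher call. Leaving out 1 array gave 4 to 8 calls, 0 to 5 higher and 3 to 7 lower, with 8 both without KO AngII 3 and without KO PBS 4. The 5 AngII arrays alone gave 4. The interaction had 0 calls, and 0 to 2 with 1 array left out. Calls under PBS, 6 in the fit of all arrays, were 17 with the block and without WT AngII 2, 18 with array weights, 1 by gene means and 4 to 22 with 1 array left out. The title numbers did not pair the arrays (correlations of deviations 0.006 and -0.084). With them as a replicate block 3 calls remained, all lower, and 3 under PBS.

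At unadjusted p under 0.05 the share of higher probe sets was 31.9% when those below the median level were dropped. Prkcz was called with array weights only (-0.52). List medians above 0 numbered 12 of 32 with all arrays, 19 with the block, 26 with the block and without WT AngII 2, and 7 with equal array medians.

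Of the genes named outside the list descriptions, signs turned for 15. With the spike-in block these were Map2k5 (0.0081), Nppa (0.035), Nppb (1.04), Pfn1 (0.012) and Cavin1 (0.046). With the block and without WT AngII 2 they were Prkci (0.19), Map2k5 (0.15), Agtr1a (-0.053), Nppa (0.20), Nppb (1.10), Gpcpd1 (-0.027), Pfn1 (0.23), Sfrp2 (0.21) and Serpinb1a (0.099). With the replicate block Mapk7 (0.0033) and Nppb (0.066) turned, with quantile normalization Mapk7 (0.023) and Acta1 (-0.031), and with equal medians Acta1 (-0.028). With array weights Acta1 (-0.0011), C1qtnf3 (0.038), Sfrp2 (0.097), Serpinb1a (0.081), Col11a1 (0.0075) and Sprr1a (0.0068) turned. Over the arrays left out in turn the ranges were -0.054 to 0.031 for Mapk7, -0.27 to 0.025 for Nppa, -0.40 to 0.014 for Nppb, -0.037 to 0.074 for Acta1, -2.30 to 0.094 for C1qtnf3, -2.24 to 0.27 for Sfrp2, -2.13 to 0.24 for Serpinb1a, -1.67 to 0.12 for Col11a1 and -1.64 to 0.046 for Sprr1a. The upper bounds for all but Nppb are the values without WT AngII 2, the same in the fit of the 4 AngII arrays. Among list members named in the text, Dusp6, Gna11, Map3k2, Per1, Rbm25, Ndufa4 and Emilin1 turned with the block, and Col1a1, Col1a2, Col3a1, Lox, Eln and Emilin1 without WT AngII 2. The cause of these turns was not tested.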

Other observations

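Of the 6 probe sets called lower or higher in KO under PBS, 4 are among the calls under AngII (Zfp931, 1429712_at, 1427174_at and 1426558_x_at). Spry4, which restrains growth factor signalling, was called under PBS on the dim probe set 1445669_at, where KO PBS 2, 3 and 4 read 4.89, 5.20 and 4.78 and WT PBS 3 and 5 read 6.30 and 6.37 (-1.38). Under AngII the same probe set read 4.88 and 4.97 in KO against 4.84, 4.997 and 5.22 in WT, a difference of -0.09 with overlapping groups. The other probe sets of Spry4 differed under PBS by -0.66 on the brightest one, and by 0.35 and 0.22.

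Some genes called only in the fit of KO AngII 3 and 4 and WT AngII 3 and 4 had differences on the brightest probe set that the spike-in block brought near 0 or turned. Rab5c, a small GTPase of early endosomes, read 8.16 and 7.93 in KO against 9.33, 9.20 and 9.49, a difference of -1.29 with all arrays, -0.06 with the block and 0.15 under PBS. Npr3, the clearance receptor of natriuretic peptides, read 5.64 and 5.98 against 5.96, 6.76 and 7.21, with -0.84, 0.54 and -0.25. These genes were chosen after their values were seen.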
